A study of Arabidopsis thaliana with 30 samples.

Results

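The type-B response regulators ARR1 (AT3G16857), ARR2 (AT4G16110), ARR10 (AT4G31920), ARR11 (AT1G67710), ARR12 (AT2G25180), ARR14 (AT2G01760) and ARR18 (AT5G58080) were taken by their gene codes from a table of 33199 features. The 7 genes were described across 8 groups of Arabidopsis thaliana roots and shoots. The plants were wild-type seedlings of the accession Col and seedlings of the mutant ahp4, named as allele ahp4-2 in the description of the series. All seedlings were 7 days old, had been raised on Murashige and Skoog agar, and were then kept for 2 h in liquid medium. The mock groups received DMSO, the solvent, and the treated groups received 100 nM of 6-benzylaminopurine (BA), a synthetic cytokinin, in the same solvent. The groups were Col root mock, Col root BA, ahp4 root mock, ahp4 root BA, Col shoot mock and Col shoot BA with 4 libraries each, and ahp4 shoot mock and ahp4 shoot BA with 3 libraries each. The labels do not tell whether replicate libraries derive from separate cultures, and the p-values therefore describe only how far these libraries scatter, which may be technical scatter.

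Cytokinins are sensed by membrane histidine kinases, the receptors AHK2, AHK3 and AHK4. These start a relay of phosphate that runs through the AHP phosphotransfer proteins, one of which is AHP4, to response regulators in the nucleus. Type-B response regulators are the transcription factors at the end of the relay. They carry a receiver domain that takes the phosphate and a Myb-like domain that binds DNA. Their phosphorylation releases activity that is already present, and their direct targets include the type-A response regulators, which dampen the signal. ARR1, ARR10 and ARR12 are known as the members on which most cytokinin responses of seedlings depend.

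Levels are given in FPKM, fragments per kilobase of transcript, a unit that allows levels of different genes to be set side by side. The deposited values were scaled between libraries by median-of-ratios size factors and not by read totals. Whole reads could be recovered from the values of each feature above 0, and the libraries held 9205127 to 13779004 of them. Tests were made with limma on log2(FPKM + 1), adjusted over all genes tested, and a change is called below when the adjusted p was under 0.05. A log2 change on this scale understates the change of a gene with a low level. Organ labels were checked with markers. The summed level of 5 shoot markers ran from 45.2 to 288 FPKM in the 16 root libraries and from 33703 to 52773 FPKM in the 14 shoot libraries, and GLK1, a regulator of greening, was at 0 in 4 root libraries. The summed level of 6 root markers ran from 4963 to 8521 FPKM in roots and from 351 to 804 FPKM in shoots, where MRN1 was at 0 in all 14 libraries and EXPA7, a gene of root hairs, in 12. AHP4, the mutated gene, had 0 to 1.71 FPKM in Col roots and 0 to 0.514 FPKM in ahp4 roots, and 1.61 to 10.6 FPKM in Col shoots against 0.363 to 2.49 FPKM in ahp4 shoots. In mock shoots AHP4 had 2.66 to 10.6 FPKM in Col and 0.808 to 2.49 FPKM in ahp4. In BA shoots it had 1.61 to 3.71 FPKM in Col and 0.363 to 0.622 FPKM in ahp4. The genotypes did not overlap in either treatment of shoots. AHP4 transcript was thus present in ahp4 libraries, at lower levels in shoots. It was not called between the genotypes after adjustment over all genes (-1.13 ± 0.24 in the average of both shoot treatments, adjusted p = 0.669 by limma). In roots AHP4 was below the filter. The position of the allele in the gene is not given in the sources used here. One library, ahp4 root mock replicate 1, was labelled ahp4 and mock in its title but Col-0 and BA in its characteristics. It was grouped by its title, and every comparison whose fit held it was also computed without it.

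In the TAIR10.1 annotation the 7 genes lie on all 5 chromosomes. ARR1 lies at chr3:5755714-5759443 on the plus strand, ARR2 at chr4:9112686-9116164 on the plus strand and ARR10 at chr4:15444053-15447042 on the minus strand. ARR11 lies at chr1:25376679-25379217 and ARR12 at chr2:10724301-10727272, both on the minus strand. ARR14 lies at chr2:332902-334760 on the plus strand and ARR18 at chr5:23501605-23504169 on the minus strand. Their exons span 1618 bases in ARR14 to 3358 bases in ARR1. In the annotation 2 members overlap a gene of the other strand, ARR1 by 69 bases with COBL8 and ARR14 by 98 bases with VIT1. The sources used here do not state whether reads were counted by strand, and values of ARR1 and ARR14 carry that uncertainty. COBL8 had 1.499 to 3.77 FPKM in roots and 0.416 to 1.97 FPKM in shoots, and VIT1 had at most 0.572 FPKM in roots and 0.111 FPKM in shoots.

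ARR12, ARR10 and ARR11 were called in at least 1 test of BA in roots, and the 250 bases before their annotated starts are shown for that reason. They were read from the TAIR10.1 genome in the direction of transcription, from 5′ to 3′, and the last letter is the base next to the start of the gene. Capitals mark AGATT or, for a match on the other strand, AATCT, the core that type-B DNA-binding domains recognise. The windows are chr2:10727273-10727522 for ARR12, chr4:15447043-15447292 for ARR10 and chr1:25379218-25379467 for ARR11, all on the minus strand.
ARR12: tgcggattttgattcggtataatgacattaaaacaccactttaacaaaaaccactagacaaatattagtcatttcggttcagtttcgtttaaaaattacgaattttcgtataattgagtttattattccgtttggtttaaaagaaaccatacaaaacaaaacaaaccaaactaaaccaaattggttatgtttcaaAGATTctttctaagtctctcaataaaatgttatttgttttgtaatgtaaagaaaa
ARR10: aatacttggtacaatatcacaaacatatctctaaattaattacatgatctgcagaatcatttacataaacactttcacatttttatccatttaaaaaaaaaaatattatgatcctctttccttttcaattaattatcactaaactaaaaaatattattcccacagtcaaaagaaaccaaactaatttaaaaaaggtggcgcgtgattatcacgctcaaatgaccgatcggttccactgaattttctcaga
ARR11: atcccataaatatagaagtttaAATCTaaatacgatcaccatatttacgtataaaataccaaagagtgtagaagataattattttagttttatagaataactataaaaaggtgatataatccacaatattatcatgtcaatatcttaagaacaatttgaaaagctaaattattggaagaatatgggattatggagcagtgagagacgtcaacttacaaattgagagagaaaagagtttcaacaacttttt

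The ARR12 window held 1 match, whose first letter lies at position -55 from the start of the gene, and the ARR11 window held 1 match, at position -228. No match was found in the ARR10 window. Over all 7 members, 5 windows held a match, ARR18 having 2, and ARR1 joined ARR10 in having none. A match was found in 17473 of the windows of 27443 protein-coding genes, or 63.7%, so its presence is common. The longer motif AGATACG, searched on both strands, was found in 464 of those windows, or 1.69%, and in no window of the 7 members. These matches are letters in a window and not sites shown to be bound.

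ARR1, ARR12 and, in roots, ARR10 were the most abundant members, and ARR18 was close to 0. Over the 30 libraries ARR1 ran from 15.9 to 28.6 FPKM with a median of 23.6, the narrowest range in proportion to its level. ARR12 ran from 13.5 to 34.6 FPKM with a median of 18.3. ARR10 ran from 3.87 to 24.2 FPKM, ARR2 from 4.15 to 13.6 FPKM, ARR11 from 0.0859 to 11.4 FPKM and ARR14 from 0.298 to 5.11 FPKM. The group means of ARR11 spanned 3.1695 on the log2 scale, the widest of the family, and those of ARR1 spanned 0.49. ARR18 was at 0 in 23 of the 30 libraries and never had more than 2 reads, a total of 13 reads in all. ARR18 was not tested, and at this depth no difference in it could be detected. The other 5 type-B genes of the gene list, ARR13, ARR19, ARR20, ARR21 and ARR23, had no read in any library, and neither had the type-C regulators ARR22 and ARR24.

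**Figure D1:**
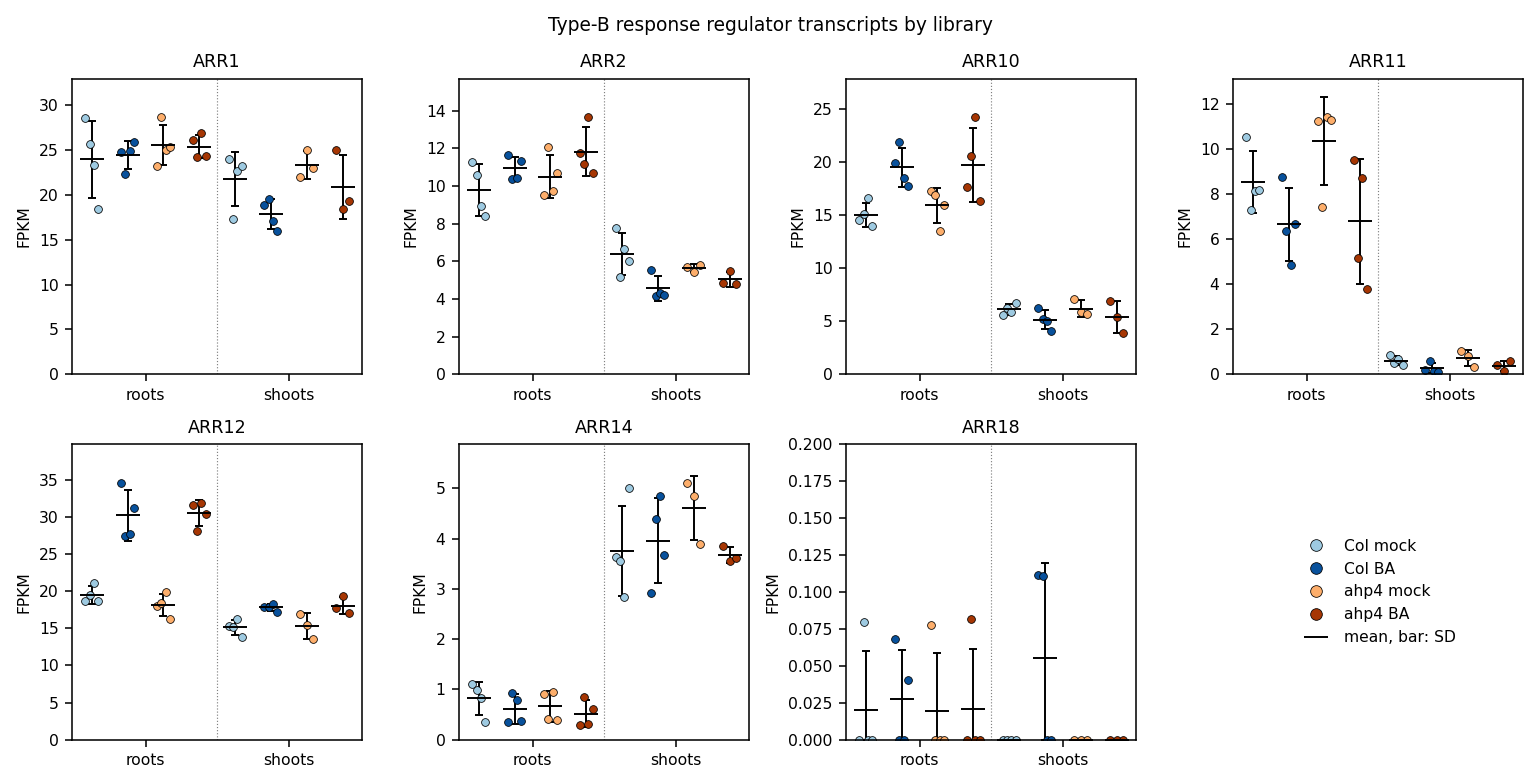
Level of each type-B response regulator in FPKM (vertical axes, a separate scale for each gene) in each library, with roots left and shoots right of the dotted line. Points are libraries, horizontal bars are group means and vertical bars SD (n = 4, or 3 in ahp4 shoots). ARR12 separates BA from mock in roots, ARR2, ARR10 and ARR11 are higher in roots and ARR14 is higher in shoots.

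ARR12 rose with BA in roots of both genotypes, and no other member was called in both. ARR12 acts with ARR1 and ARR10 in root and vascular development, and with ARR1 it limits the activity of the root meristem. In Col roots the mock libraries had 18.7, 19.6, 21.2 and 18.7 FPKM of ARR12. The BA libraries of Col roots had 34.6, 27.4, 27.7 and 31.3 FPKM. All 4 treated libraries lay above all 4 mock libraries, and the means were 19.5 ± 1.18 and 30.2 ± 3.42 FPKM (SD, n = 4 each). The change was 0.60 ± 0.09 (log2, standard error; adjusted p = 0.000112 by limma). In ahp4 roots the mock libraries had 18.002, 18.4, 19.9 and 16.2 FPKM, and the BA libraries had 31.7, 28.2, 31.9 and 30.5 FPKM. The groups again did not overlap, and the change was 0.72 ± 0.09 (adjusted p = 1.95e-05). Both calls held under each alternative tried.

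ARR10 was higher with BA in Col roots, with a smaller change that depended on single libraries. The Col mock libraries had 14.5, 15.1, 16.6 and 14.0 FPKM, and the Col BA libraries had 19.95, 21.9, 18.5 and 17.7 FPKM. The groups did not overlap, and the change was 0.35 ± 0.11 (adjusted p = 0.0346 by limma). The call ended without Col root mock replicate 1, 2 or 4, without Col root BA replicate 1 or 2, with scaling by read totals, with quantile normalization and with all 8 groups in the fit, where adjusted p reached 0.108. In ahp4 roots the mock libraries had 17.3, 16.9, 13.5 and 16.0 FPKM and the BA libraries had 17.7, 20.6, 24.2 and 16.3 FPKM. These groups overlapped, and the difference of 0.28 ± 0.11 did not pass (adjusted p = 0.0863), although it did without ahp4 root BA replicate 4 (adjusted p = 0.0352). Averaged over both genotypes, ARR10 rose by 0.32 ± 0.08 (adjusted p = 0.00485). This averaged call held under all 24 alternatives, with an adjusted p of up to 0.0171.

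ARR11 had lower means with BA in roots of both genotypes. Col root mock libraries had 10.5, 7.31, 8.16 and 8.18 FPKM of ARR11, and Col root BA libraries had 8.78, 6.36, 4.83 and 6.65 FPKM. The corresponding ahp4 libraries had 11.2, 7.44, 11.4 and 11.3 FPKM with mock and 9.52, 5.16, 8.70 and 3.77 FPKM with BA. Mock and BA libraries overlapped in each genotype, and replicate 2 was the lowest of the ahp4 mock group. Neither genotype passed alone, with differences of -0.33 ± 0.22 in Col (adjusted p = 0.318) and -0.60 ± 0.22 in ahp4 (adjusted p = 0.0654). Averaged over both genotypes ARR11 fell by 0.47 on the log2 scale, with a standard error of 0.16 (adjusted p = 0.0282). That call ended without Col root mock replicate 1, Col root BA replicate 3, ahp4 root mock replicate 1, 3 or 4, or ahp4 root BA replicate 2 or 4, with an adjusted p of up to 0.0600. The difference in ahp4 alone passed in 6 of 17 alternatives, among them those without ahp4 root mock replicate 2 or ahp4 root BA replicate 1 or 3, with all 8 groups in the fit and with voom, where the lowest adjusted p was 0.0224.

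ARR1 and ARR2 were not called in roots. ARR1, which promotes the cell differentiation that sets the size of the root meristem, had 28.5, 25.7, 23.3 and 18.4 FPKM in Col root mock and 24.7, 22.3, 24.9 and 25.9 FPKM in Col root BA. In ahp4 roots ARR1 had 23.3, 28.6, 25.0 and 25.3 FPKM with mock and 26.1, 24.2, 26.9 and 24.3 FPKM with BA. The groups overlapped widely. The 95% interval of the BA difference of ARR1 was -0.18 to 0.27 in Col (adjusted p = 0.824) and -0.23 to 0.22 in ahp4 (adjusted p = 0.974). ARR2, which is linked through AHK3 to the delay of leaf senescence, had 11.3, 10.6, 8.93 and 8.38 FPKM in Col root mock and 11.6, 10.4, 10.4 and 11.3 FPKM in Col root BA. The ahp4 values of ARR2 were 9.53, 12.1, 9.71 and 10.7 FPKM with mock and 11.8, 11.2, 13.6 and 10.7 FPKM with BA. Its means were higher with BA in both genotypes, by 0.15 ± 0.10 in Col and 0.16 ± 0.10 in ahp4, and neither difference passed (adjusted p = 0.329 and 0.318). ARR14 was below the expression filter in roots, with 6 to 28 reads in a library.

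Of the 5 members tested, 2 were called higher in Col roots and 1 in ahp4 roots, while 11.8% and 11.4% of the 19418 genes tested were called higher there, 8.75% and 9.26% were called lower, and 20.5% and 20.7% were called in either direction. In the average of both genotypes 2 members were called higher and 1 lower, beside 19% of all genes called higher, 17.3% called lower and 36.3% called in all. The median log2 change of the 5 members was 0.15 in Col and 0.16 in ahp4 roots, beside -0.0035 and -0.011 over all genes tested. The summed level of the 5 shoot markers had medians of 127 FPKM in Col root mock and 239 FPKM in Col root BA, and of 65.7 and 151 FPKM in ahp4, with ranges that overlapped in both genotypes. Of these markers LHCB2.1 was called higher with BA in both genotypes. Of the 6 root markers 2 were called higher and 2 lower in each genotype. The part of these in the results on ARR10, ARR11 and ARR12 was not tested.

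In shoots no member was called within a genotype, beside 8.15% of the 18246 genes tested in Col (5.26% called higher) and 3.92% in ahp4 (2.93% called higher). ARR12 had 15.4, 15.2, 16.3 and 13.8 FPKM in Col shoot mock and 17.9, 17.9, 18.3 and 17.2 FPKM in Col shoot BA. In ahp4 shoots ARR12 had 17.0, 15.5 and 13.5 FPKM with mock and 17.8, 19.3 and 17.1 FPKM with BA. Mock and BA libraries did not overlap in either genotype. The differences were nonetheless 0.22 ± 0.09 (adjusted p = 0.129) in Col and 0.23 ± 0.10 (adjusted p = 0.242) in ahp4. Averaged over both genotypes, ARR12 rose by 0.22 ± 0.07 (adjusted p = 0.0293 by limma), the 1 member called of 5, beside 8.77% of all genes called higher and 17.3% called in either direction. That call ended without Col shoot mock replicate 4, Col shoot BA replicate 3, ahp4 shoot mock replicate 2 or 3, or ahp4 shoot BA replicate 2, with an adjusted p of up to 0.0778.

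ARR1, ARR2 and ARR10 had lower means with BA in both shoots, and no difference passed. ARR2 had 7.77, 5.16, 6.63 and 6.02 FPKM in Col shoot mock and 5.56, 4.15, 4.34 and 4.197 FPKM in Col shoot BA. In ahp4 shoots its values were 5.67, 5.44 and 5.83 FPKM with mock and 4.86, 5.49 and 4.77 FPKM with BA. Replicate 1 of Col shoot BA was the only treated Col library above the lowest mock library. The ARR2 difference was -0.41 ± 0.12 in Col (adjusted p = 0.0563) and -0.14 ± 0.14 in ahp4 (adjusted p = 0.654). The Col difference passed without Col shoot mock replicate 2 or Col shoot BA replicate 1, with all 8 groups in the fit and with voom, with a lowest adjusted p of 0.0154. ARR1 had 24.0, 17.3, 22.6 and 23.2 FPKM in Col shoot mock and 18.8, 19.6, 17.1 and 15.9 FPKM in Col shoot BA, a difference of -0.27 ± 0.12 (adjusted p = 0.192). In ahp4 shoots ARR1 had 22.0, 25.0 and 23.0 FPKM with mock and 25.0, 18.4 and 19.3 FPKM with BA, a difference of -0.16 ± 0.14 (adjusted p = 0.582). Mock and BA libraries of ARR1 overlapped in both genotypes. The average of ARR1 over both genotypes, -0.21 ± 0.09 (adjusted p = 0.121), passed without Col shoot mock replicate 2 or ahp4 shoot BA replicate 1 (lowest adjusted p = 0.0382).

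ARR10 and ARR14 did not pass in shoots either. ARR10 had 5.56, 6.27, 5.89 and 6.73 FPKM in Col shoot mock and 6.23, 5.20, 5.04 and 4.04 FPKM in Col shoot BA. The ahp4 values of ARR10 were 7.12, 5.82 and 5.64 FPKM with mock and 6.91, 5.36 and 3.87 FPKM with BA. The differences were -0.22 ± 0.15 in Col (adjusted p = 0.407) and -0.20 ± 0.17 in ahp4 (adjusted p = 0.605), with groups that overlapped. ARR14 had 3.63, 3.55, 2.84 and 5.00 FPKM in Col shoot mock and 2.91, 4.39, 4.84 and 3.68 FPKM in Col shoot BA, a difference of 0.06 ± 0.16. Its ahp4 values were 5.11, 4.84 and 3.90 FPKM with mock and 3.86, 3.56 and 3.61 FPKM with BA. The ahp4 groups did not overlap, and the difference was -0.26 ± 0.18 (adjusted p = 0.493). ARR11 had 2 to 29 reads in a shoot library and was below the filter. Tested without the filter, its difference was -0.35 ± 0.16 in Col shoots (adjusted p = 0.252) and -0.31 ± 0.19 in ahp4 shoots (adjusted p = 0.489).

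**Figure D2:**
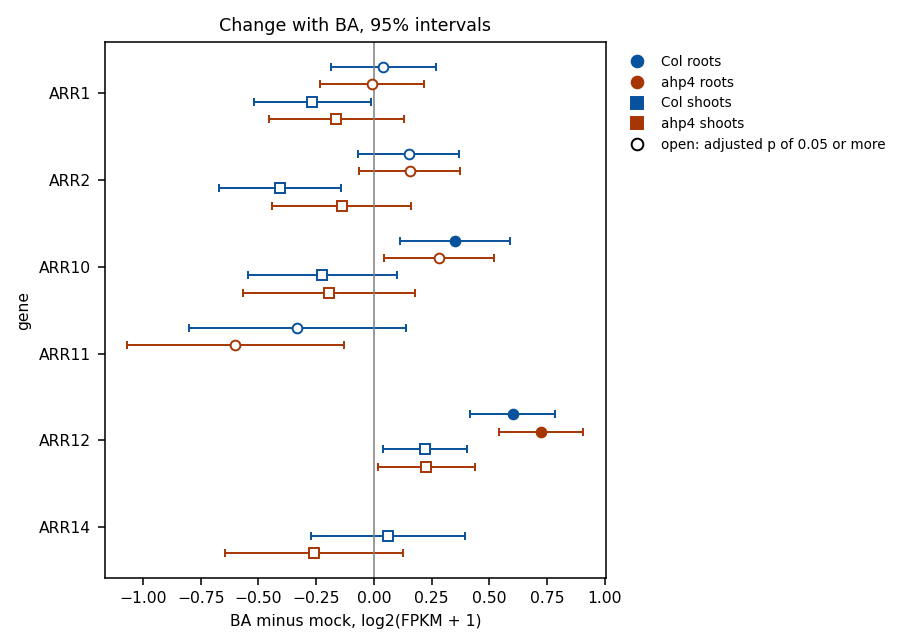
Difference between BA and mock for each tested member (horizontal axis, log2(FPKM + 1); vertical axis, gene) in Col roots, ahp4 roots, Col shoots and ahp4 shoots, with 95% intervals of the limma fit. Filled symbols had an adjusted p under 0.05. ARR12 was called in both root comparisons (0.60 and 0.72) and ARR10 in Col roots (0.35), and no shoot symbol is filled.

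Whether roots and shoots answered BA differently was tested in 1 fit of all 8 groups, as the change in roots minus the change in shoots. In Col 3 of the 6 members tested were called, beside 11.6% of the 20818 genes tested in either direction. ARR2 differed by 0.56 ± 0.15 (adjusted p = 0.0186), having been higher with BA in roots and lower in shoots without a call in either organ. ARR10 differed by 0.58 ± 0.19 (adjusted p = 0.0428) and ARR12 by 0.38 ± 0.12 (adjusted p = 0.0309). In ahp4 only ARR12 was called of the 6 tested, with 0.50 ± 0.12 (adjusted p = 0.0114), beside 8.76% of all genes. The ahp4 differences of ARR10 (0.48 ± 0.20, adjusted p = 0.144) and ARR2 (0.30 ± 0.17, adjusted p = 0.306) did not pass, and whether they differ from those of Col was not tested. The ahp4 call of ARR12 held under all 22 alternatives. The Col call of ARR10 ended in 16 of 25 alternatives, among them those without Col root mock replicate 1, 2 or 4, Col root BA replicate 1, 2 or 3, Col shoot mock replicate 2, 3 or 4 or Col shoot BA replicate 2, 3 or 4, with an adjusted p of up to 0.0922. The Col call of ARR12 ended in 10 of 25, among them those without Col root mock replicate 1 or 4, Col root BA replicate 1 or 4, Col shoot mock replicate 1 or 3 or Col shoot BA replicate 4, with an adjusted p of up to 0.0923. The Col call of ARR2 ended only when the fit was reduced to the groups compared (adjusted p = 0.0553). ARR10 in ahp4 passed without ahp4 shoot BA replicate 1 (adjusted p = 0.0371).

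Members differed in which organ held more transcript. In mock Col, ARR11 had 8.54 ± 1.38 FPKM in roots and 0.601 ± 0.192 FPKM in shoots (SD, n = 4 each), a ratio of means of 14.2 and a log2 difference of 2.57 ± 0.21 (adjusted p = 1.14e-11). In mock ahp4 the ARR11 means were 10.4 ± 1.94 FPKM (n = 4) and 0.717 ± 0.361 FPKM (n = 3), a ratio of 14.4. ARR10 had means of 15.04 ± 1.13 FPKM in Col roots and 6.11 ± 0.501 FPKM in Col shoots, a difference of 1.17 ± 0.13 (adjusted p = 7.08e-09). No shoot library reached the lowest root library for either gene. ARR2 was higher in Col roots by 0.55 ± 0.11 (adjusted p = 6.73e-05) and in ahp4 roots by 0.79 ± 0.12 (adjusted p = 1.28e-06), and its mock groups did not overlap. ARR14 was the reverse. It had 1.11, 0.989, 0.827 and 0.357 FPKM in Col root mock, 0.357, 0.933, 0.797 and 0.367 FPKM in Col root BA, 0.912, 0.404, 0.956 and 0.387 FPKM in ahp4 root mock and 0.298, 0.850, 0.300 and 0.603 FPKM in ahp4 root BA. Each shoot library was above each of these, and the mock difference, root minus shoot, was -1.39 ± 0.17 in Col (adjusted p = 5.16e-08) and -1.77 ± 0.19 in ahp4 (adjusted p = 2.49e-09).

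ARR12 was slightly higher in mock roots than in mock shoots, by 0.34 ± 0.08 in Col (adjusted p = 0.000487) and 0.23 ± 0.09 in ahp4 (adjusted p = 0.0220). The ahp4 groups overlapped, and that call ended without ahp4 root mock replicate 3 or ahp4 shoot mock replicate 3 and in a fit of the groups compared alone, with an adjusted p of up to 0.177. ARR1 did not differ beyond its spread, with 0.13 ± 0.11 in Col (adjusted p = 0.324) and 0.12 ± 0.12 in ahp4 (adjusted p = 0.373). It became higher in Col roots without Col root mock replicate 4, and in both genotypes under other scalings. Of the 6 members tested, 4 were called higher in roots and 1 lower in each genotype. The background was 71.3% of all genes in Col, with 38.3% higher and 32.9% lower, and 70% in ahp4, with 37.9% higher and 32.1% lower. Whether the share of the members differs from these was not tested. ARR11 passed the filter of this fit through its root libraries, having at most 1.03 FPKM in shoots. ARR14 passed it through its shoot libraries, having at most 1.11 FPKM in roots. For both genes the organ that let the gene into the test is the organ in which it was called higher. In these bulk samples, fewer cells that express a gene and less RNA per cell cannot be told apart.

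A level set across organs depended on the scaling. The deposited values follow size factors, with which 7980 of 14833 called genes were higher in mock Col roots. Scaling by read totals gave 12463 of 16606 and moved the median over all genes from 0.07 to 0.53 in Col and 0.46 in ahp4. Quantile normalization gave 8106 of 15084. In mock ahp4 the 3 splits were 7890 of 14571, 11651 of 15933 and 7725 of 14845. The 5 members called kept their direction under all 3 scalings, while ARR1 became higher in roots, by 0.66 in Col and 0.58 in ahp4 with read totals and by 0.30 and 0.27 with quantile normalization. Relative to the median of all genes under read totals, ARR1 differed by 0.13 in Col and 0.12 in ahp4, ARR12 by 0.34 and 0.21, and ARR14 by -1.57 and -1.93.

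**Figure D3:**
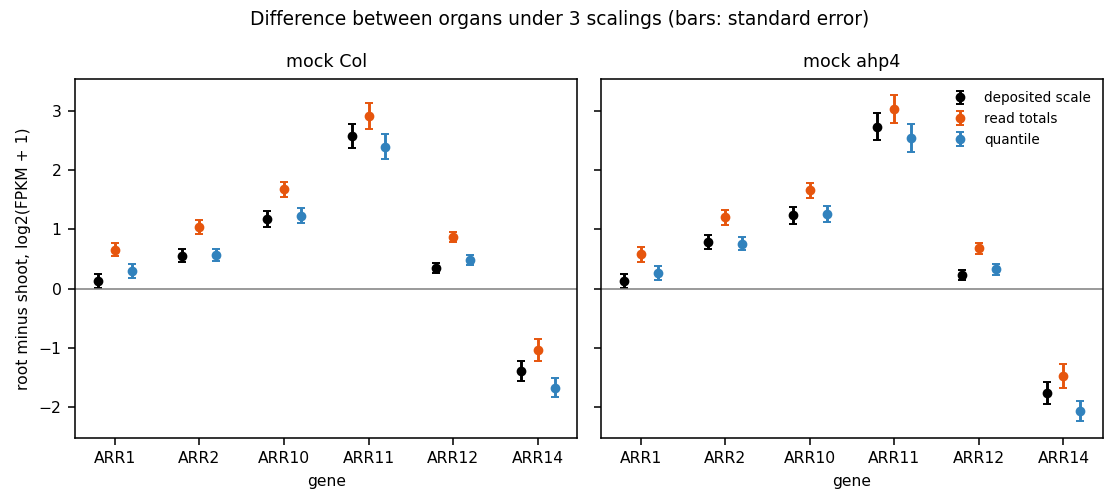
Root minus shoot difference of each tested member in mock Col and mock ahp4 (vertical axis, log2(FPKM + 1); horizontal axis, gene) under the deposited scale, read totals and quantile normalization, with standard errors. ARR2, ARR10, ARR11 and ARR12 lie above 0 and ARR14 below 0 under each scaling, and ARR1 moves from 0.13 to 0.66 in Col.

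Ordered by group mean, neighbouring groups of each member mostly overlapped. For ARR1 every pair of neighbours overlapped, from 25.5 ± 2.25 FPKM in ahp4 root mock to 17.9 ± 1.64 FPKM in Col shoot BA. ARR2 had 1 gap, between Col root mock (9.80 ± 1.37 FPKM) and Col shoot mock (6.39 ± 1.10 FPKM). ARR11 and ARR14 also had a single gap, between the organs. ARR10 had a gap between Col root BA (19.5 ± 1.82 FPKM) and ahp4 root mock (15.9 ± 1.68 FPKM) and another between Col root mock and ahp4 shoot mock (6.19 ± 0.806 FPKM). The first gap did not part all BA roots from mock roots. The lowest ahp4 root BA library had 16.3 FPKM and the highest ahp4 root mock library 17.3 FPKM. ARR12 had a gap between Col root BA and Col root mock and another between Col shoot BA (17.8 ± 0.474 FPKM) and ahp4 shoot mock (15.3 ± 1.75 FPKM). The second gap was crossed by ahp4 root mock, whose lowest library had 16.2 FPKM beside 17.0 FPKM in the highest of ahp4 shoot mock. In ARR12, BA shoots lay beside mock roots, at 18.05 ± 1.153 FPKM in ahp4 shoot BA and 18.1 ± 1.52 FPKM in ahp4 root mock.

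The ahp4 mutant was compared with the wild type in each organ and treatment, and no member was called in any of the 6 comparisons. The shares of all genes called were 0.0875% in mock roots, 0.0257% in BA roots and 0.00548% in mock shoots and in BA shoots alike, that is 17, 5, 1 and 1 genes. Averaged over treatments they were 0.0927% in roots and 0.00548% in shoots. Col and ahp4 libraries overlapped for each tested member in each comparison. The estimate farthest from 0 was that of ARR14 in mock shoots, 0.25 ± 0.17, with an interval of -0.11 to 0.61 (adjusted p = 1). ARR11 in mock roots had 0.24 ± 0.22, with an interval of -0.23 to 0.71. For ARR12 the intervals were narrower, -0.29 to 0.08 in mock roots, -0.16 to 0.20 in BA roots, -0.19 to 0.21 in mock shoots and -0.18 to 0.21 in BA shoots. For ARR1 the estimate farthest from 0 was 0.21 ± 0.13 in BA shoots, with an interval of -0.07 to 0.48. An unpassed test does not show that the genotypes were alike, and these intervals bound the difference on the log2(FPKM + 1) scale.

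The BA response itself was compared between the genotypes, and again no member was called. In roots 0% of the 19418 genes tested were called by limma, with 526 at an unadjusted p under 0.05, and in shoots 0% of 18246, with 336. In both organs this is below the share that a threshold of 0.05 would mark by chance alone. Voom on the recovered reads called 0 in each organ. The response of ARR12 in ahp4 minus that in Col was 0.12 ± 0.12 in roots, with an interval of -0.14 to 0.38, and 0.01 ± 0.13 in shoots. For ARR11 in roots it was -0.27 ± 0.31, with an interval of -0.93 to 0.39. ARR2 and ARR14 in shoots had 0.27 ± 0.19 and -0.32 ± 0.24, and the intervals of both included 0.

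**Figure D4:**
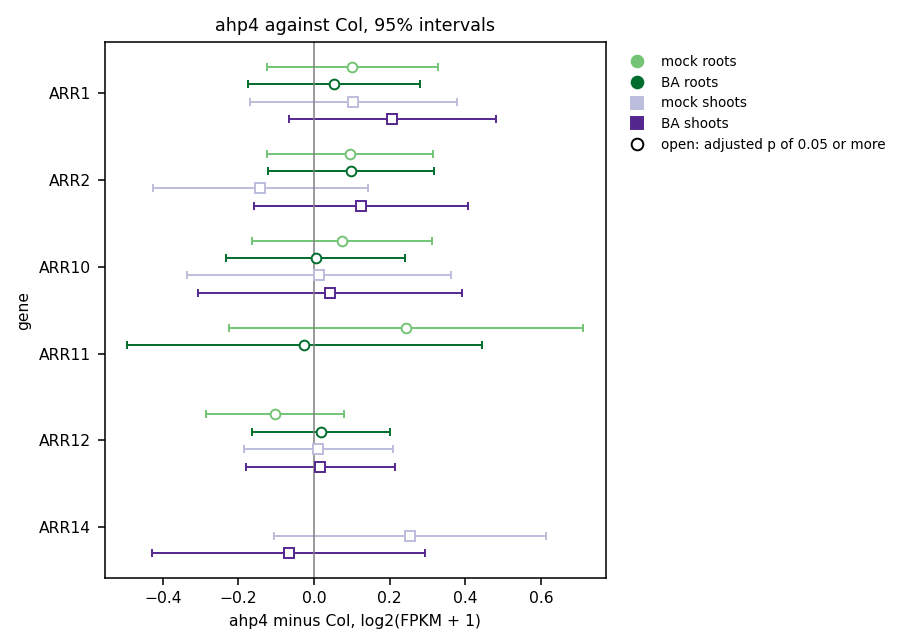
Difference between ahp4 and Col for each tested member (horizontal axis, log2(FPKM + 1); vertical axis, gene) in mock roots, BA roots, mock shoots and BA shoots, with 95% intervals of the limma fit. Each interval includes 0 and no symbol is filled, the highest estimate being 0.25 for ARR14 in mock shoots.

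The make-up of the family's transcripts was described by the share of each member in the summed FPKM of the 7 genes, which does not depend on the scaling of libraries. ARR1, ARR10 and ARR12 together held 75.4% of the sum in Col root mock and 80.3% in Col root BA, 73.4% and 79.9% in the ahp4 roots, and 80.1% to 82.9% in the 4 shoot groups. The share of ARR12 was 25.3 ± 2.44% in Col root mock and 32.7 ± 1.73% in Col root BA (SD, n = 4 each). In ahp4 roots it was 22.3 ± 1.84% and 32.4 ± 2.24%. Shoots showed the same order, with 28.3 ± 2.95% and 36.0 ± 1.73% in Col and 27.4 ± 1.77% and 34.0 ± 3.42% in ahp4. The share of ARR11 was 11.01 ± 1.499% in Col root mock and 7.15 ± 1.31% in Col root BA. ARR14 held 7.00 ± 1.65% in Col shoot mock and 1.03 ± 0.356% in Col root mock.

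Set against ARR1, ARR12 was the lesser transcript in each mock library except Col root mock replicate 4, and the greater in each BA library of roots. The ratio of ARR12 to ARR1 was 0.655, 0.761, 0.909 and 1.02 in the Col root mock libraries and 1.40, 1.23, 1.11 and 1.21 in the Col root BA libraries. In ahp4 roots it was 0.774, 0.642, 0.798 and 0.640 with mock and 1.22, 1.16, 1.19 and 1.25 with BA. Mock and BA libraries did not overlap in either genotype. In Col shoots the ratio was 0.642, 0.879, 0.719 and 0.594 with mock and 0.953, 0.915, 1.07 and 1.08 with BA. The ahp4 shoots had 0.773, 0.619 and 0.588 with mock and 0.711, 1.05 and 0.885 with BA, and there the libraries overlapped. The summed level of the family was 77.7 ± 7.01 FPKM in Col root mock and 92.4 ± 5.76 FPKM in Col root BA, and 53.8 ± 4.00 and 49.6 ± 3.18 FPKM in Col shoots. These shares, ratios and sums were not tested.

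**Figure D5:**
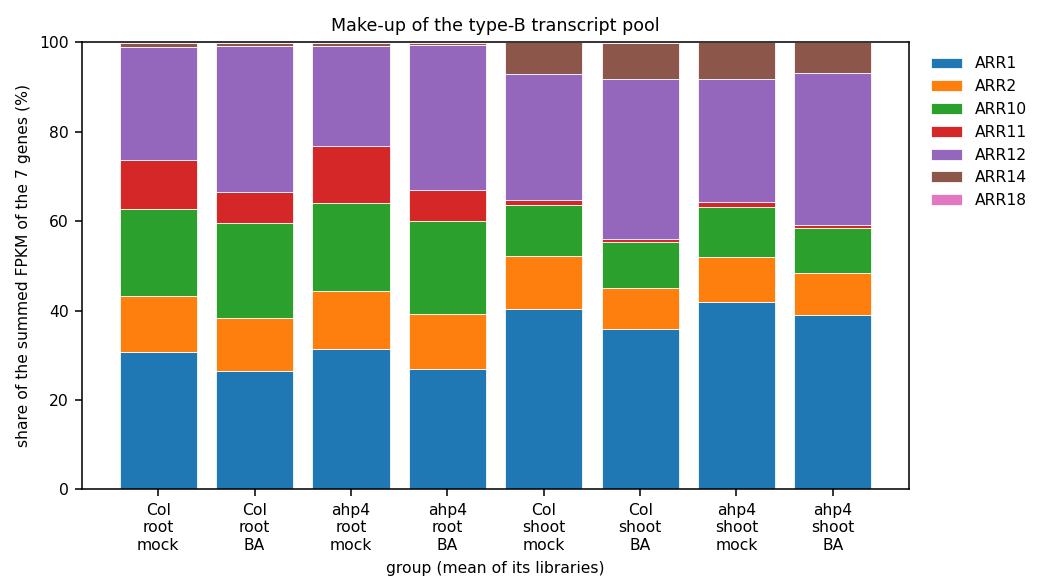
Share of each member in the summed FPKM of the 7 genes (vertical axis, percent) in the 8 groups (horizontal axis), as stacked means of the libraries. The ARR12 band is wider with BA than with mock in each pair of groups, from 25.3% to 32.7% in Col roots, and the ARR11 band is seen mainly in roots and the ARR14 band mainly in shoots.

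The rest of the relay was read from gene lists for comparison. All 10 type-A response regulators were called higher with BA in Col roots and in ahp4 roots, with median log2 changes of 1.81 and 1.82. All 8 tested were called higher in both shoots, with medians of 2.18 and 2.48. In roots ARR15 and ARR17 passed the filter through BA libraries, the groups in which they were called higher. With mock they had at most 0.587 and 0.545 FPKM there. The same holds for ARR15 in shoots, with at most 0.853 FPKM in Col mock and 1.24 FPKM in ahp4 mock. Of the 3 receptors, AHK4 rose in each of the 4 comparisons, by 0.84 in both roots, 1.24 in Col shoots and 1.58 in ahp4 shoots. AHK2 fell in roots, by 0.60 in Col and 0.75 in ahp4, and AHK3 was higher in Col roots by 0.46 ± 0.16 (adjusted p = 0.0476), a call lost in 9 of 18 alternatives, among them those without Col root mock replicate 3 or 4 or Col root BA replicate 1, 2 or 4 (adjusted p up to 0.144). Of the AHP genes, 1 of 5 tested was called in Col roots, 2 of 5 in ahp4 roots, 1 of 5 in Col shoots and 0 of 5 in ahp4 shoots, all of them higher, beside 11.8%, 11.4%, 5.26% and 2.93% of all genes called higher. They were AHP1 in Col roots, ahp4 roots and Col shoots and AHP3 in ahp4 roots. In ahp4 roots the highest type-B change, 0.72 for ARR12, stood beside a lowest type-A change of 0.78 for ARR8.

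The KMD genes encode F-box proteins that mark type-B response regulators for degradation, and 2 of the 4 were expressed above the filter. KMD1 had 51.2 ± 7.25 FPKM in Col root mock and 146 ± 35.0 FPKM in Col root BA (SD, n = 4 each), a change of 1.47 ± 0.19 (adjusted p = 5.07e-05), and in ahp4 roots it rose by 1.45 ± 0.19. KMD2 had 110 ± 8.52 and 168 ± 28.0 FPKM in the same Col groups, a change of 0.59 ± 0.13 (adjusted p = 0.00417), and rose by 0.53 ± 0.13 in ahp4 roots (adjusted p = 0.00838). Neither was called in shoots, where KMD1 had 117 ± 15.8 FPKM in Col mock and 132 ± 20.05 FPKM in Col BA. The response of KMD1 in roots minus that in shoots was 1.31 ± 0.29 in Col (adjusted p = 0.00338) and 1.60 ± 0.31 in ahp4 (adjusted p = 0.00161). That of KMD2 did not pass, with 0.64 ± 0.22 in Col (adjusted p = 0.0562). KMD3 was at 0 in all libraries, and KMD4 had at most 0.643 FPKM.

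A list of 9 genes reported as targets of ARR1, ARR10 or ARR12 was followed, with 8 of them tested in roots and 7 in shoots. In Col roots 3 rose and 2 fell, beside 11.8% of all genes called higher and 8.75% called lower. IAA3, the repressor of auxin signalling through which ARR1 and ARR12 act on the root meristem, had 10.2 ± 3.43 FPKM with mock and 42.1 ± 3.84 FPKM with BA, a change of 1.98 ± 0.19 (adjusted p = 2.17e-06). GH3.17, which conjugates auxin, rose by 1.07 and HEMA1, an early enzyme of chlorophyll synthesis, by 0.81. HKT1, a sodium transporter whose transcript ARR1 and ARR12 lower in roots, fell by 0.74. It had at most 0.486 FPKM in Col root BA and 0.378 FPKM in ahp4 root BA, against up to 2.06 and 1.32 FPKM with mock. HKT1 thus passed the filter in roots through mock libraries alone, the groups in which it was higher. TAA1, an enzyme of auxin synthesis, fell by 0.44 (adjusted p = 0.0176), a call lost without Col root mock replicate 3 or Col root BA replicate 3 (adjusted p up to 0.0573). In ahp4 roots, where 11.4% of all genes were called higher and 9.26% lower, IAA3 (1.87), GH3.17 (0.99) and HEMA1 (0.73) rose. HKT1 fell by 0.62 (adjusted p = 0.0316), a call lost without ahp4 root mock replicate 1, 3 or 4 or ahp4 root BA replicate 1, 2 or 4 (adjusted p up to 0.0914). TAA1 did not pass there (-0.28, adjusted p = 0.114), although it did without ahp4 root mock replicate 2 (adjusted p = 0.0187). In shoots only TAA1 of the 7 was called in either genotype, beside 8.15% of all genes in Col and 3.92% in ahp4, and it was higher, from 15.9 ± 1.89 to 36.9 ± 5.98 FPKM in Col, a change of 1.16 ± 0.15, and by 1.18 ± 0.18 in ahp4. GH3.17 did not pass in either shoot genotype (-0.41 ± 0.19 in Col and -0.80 ± 0.22 in ahp4), but fell by 0.61 in their average (adjusted p = 0.0119), opposite in sign to its change in roots. In ahp4 shoots it was called lower with all 8 groups in the fit and without ahp4 shoot BA replicate 1 (adjusted p = 0.0225). The response of TAA1 in roots minus that in shoots was -1.60 ± 0.20 in Col (adjusted p = 1.45e-05) and -1.47 ± 0.21 in ahp4 (adjusted p = 0.000102). None of the receptor, type-A, AHP, KMD or target genes tested was called between ahp4 and Col in any comparison.

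The members with the widest spread of group means, ARR11 and ARR14, were set beside the 8277 genes with a symbol and a mean of at least 1 FPKM over the 30 libraries, by the root mean square difference of their centred log2 group means over the 8 groups. The profiles nearest to ARR11 were those of NRAMP1 (0.0711), a transporter of manganese and iron, NIP3;1 (0.103), an aquaporin, and NAC084 (0.126), a transcription factor. NRAMP1 had 68.1 ± 7.48 FPKM in Col root mock, 50.4 ± 4.61 FPKM in Col root BA and 10.8 ± 0.904 FPKM in Col shoot mock. Of the other members, ARR10 was the nearest to ARR11 at 0.627 and ARR14 the farthest at 2.102. The profiles nearest to ARR14 were those of ARC6 (0.0660), a protein of plastid division, PAC (0.0680), a plastid protein, and LAX1 (0.0737), an auxin influx carrier. ARC6 had 5.30 ± 0.717 FPKM in Col root mock and 17.1 ± 1.05 FPKM in Col shoot mock. These distances are descriptions over 8 group means of log2(FPKM + 1) and carry no test. That scale understates changes at low levels, and ARR11 had 0.601 FPKM in Col shoot mock and ARR14 0.820 FPKM in Col root mock. A near profile therefore need not have the same ratio between organs, which was 14.2 for ARR11 in mock Col.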

How the data were processed

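Polyadenylated RNA of 30 root and shoot libraries was sequenced as paired reads, per the labels' protocols. The authors deposited 1 table of FPKM values for 33199 features. The submitters' processing notes name the build TAIR10. Neither the aligner and counter nor strand-specific counting is described in the sources used here. Whole reads were recovered for 100% of the 26893 features with a value, within 0.01 reads, and the scale of the deposited values equalled median-of-ratios size factors. Groups were taken from the sample titles.

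Each comparison was tested with limma 3.58.1 in R 4.3.3 (mean-variance trend) on log2(FPKM + 1), for genes that reached 1 FPKM in 3 or more of the fitted libraries, with Benjamini-Hochberg adjustment over all genes tested and a threshold of 0.05. The 4 groups of an organ shared 1 fit, and contrasts between organs were fitted over the 8 groups together, with no pairing of organs. There were 18 comparisons. The fit was tested on simulated data. Alternatives were another pseudocount (0.1), other filters, read-total and quantile scaling, other sets of groups, a replicate block, limma voom on recovered reads, and each library left out. Named were the 7 members, called members of the pathway lists, and the 3 genes nearest in profile to the 2 members with the widest range. Names, positions and upstream windows came from TAIR10.1. The members and lists were chosen with earlier results of these data known. Tables and figures used python 3.11.15, numpy 2.4.6, pandas 2.3.3 and matplotlib 3.10.9. No 2 libraries of a group looked like repeats of 1 library: the chi-square per degree of freedom of their reads was 3.01 to 21.9 over 42 pairs.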

Additional observations from a re-analysis of the deposited data

Results flagged for a closer look

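In 5 groups 1 library stood far from the others, out of 41 groups of 4 libraries examined for the 7 genes. Chance alone marks about 1 in 20 groups, but that rate does not apply to the ARR18 groups named below. In a group where a single library has reads and the others are at 0, that library is always marked. The count of 5 therefore cannot be set against that rate. For ARR2, Col shoot BA replicate 1 had 5.56 FPKM and the next highest library 4.34 FPKM. For ARR11, ahp4 root mock replicate 2 had 7.44 FPKM and the next lowest library 11.2 FPKM. For ARR18, Col root mock replicate 2 had 0.0799 FPKM, ahp4 root mock replicate 1 had 0.0778 FPKM and ahp4 root BA replicate 2 had 0.0816 FPKM, with the other libraries of each group at 0 and no more than 2 reads behind any value.

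The response to BA differed between roots and shoots for 3 of the 6 members tested in Col, each tested as an interaction in limma. The differences were 0.56 (log2) for ARR2, 0.58 for ARR10 and 0.38 for ARR12. In ahp4 only ARR12 of the 6 was called, with 0.50. Beside them, 11.6% of all genes were called in Col and 8.76% in ahp4. The Col calls of ARR10 and ARR12 ended in 16 and 10 of 25 alternatives, and that of ARR2 in 1. The ahp4 call of ARR12 held under all 22.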

How the results depend on the processing

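No member changed direction where it was called, over all comparisons and alternatives run. Of the values of named genes under the alternatives, 75 lost a call, 27 gained one and 3143 did neither. The count of members called in Col roots with BA was 2, and 1 with scaling by read totals, with quantile normalization and with all 8 groups in the fit (ARR10 lost). In ahp4 roots it was 1, and 2 with all 8 groups, with the replicate block and with voom (ARR11 gained). In Col shoots it was 0, and 1 with all 8 groups and with voom, and in the average of both shoots 1, and 2 with the same settings (ARR2 gained). For the response in Col roots minus that in shoots it was 3, and 1 with quantile normalization and with only the groups compared. There ARR10 alone lost its call with the pseudocount of 0.1, without the filter and with voom, and ARR12 alone with scaling by read totals. Leaving out 1 library in turn gave 1 to 2 members in Col roots, 1 to 2 in ahp4 roots, 0 to 1 in Col shoots, 0 to 0 in ahp4 shoots, 2 to 3 in the average of roots, 0 to 3 in the average of shoots, 5 to 6 between organs in mock Col, 4 to 5 in mock ahp4, 1 to 3 for the organ difference of the response in Col and 1 to 2 in ahp4, and 0 to 0 in each comparison of ahp4 with Col or of their responses. Over all genes, leaving out 1 library gave 3053 to 3877 calls in Col roots and 3178 to 4230 in ahp4 roots. In shoots it gave 811 to 1439 in Col and 330 to 659 in ahp4. In the averages it gave 6357 to 7433 in roots and 2168 to 3231 in shoots. Between organs it gave 14205 to 14779 in mock Col and 13731 to 14262 in mock ahp4. For the organ difference of the response it gave 1818 to 2410 in Col and 1290 to 2302 in ahp4. The cause of these moves was not tested.

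Replicate numbers did not pair the samples by the rule used, under which all same-numbered libraries of a pair of groups must correlate over 0.1. None of 28 pairs of groups met it. The correlations were -0.125 to 0.375, with 24 of 99 over 0.1. Libraries of unlike number were not set beside them, and whether some same-numbered libraries share a batch was not tested. The replicate block moved the count of members called only in ahp4 roots, from 1 to 2. Over all genes, the count called in Col shoots was 1487, with 989 when only the groups compared were fitted and 2319 with all 8 groups. In ahp4 shoots it was 716, with 450 and 1287. The organ difference of the response gave 2411 in Col and 1824 in ahp4, and 1562 and 1022 with voom. Leaving out 1 library gave as few as 811 in Col shoots (without Col shoot mock replicate 3) and 330 in ahp4 shoots (without ahp4 shoot mock replicate 2). Between ahp4 and Col the alternatives gave 5 to 26 genes in mock roots (17 in the main test), 1 to 5 in BA roots (5), 9 to 28 in the root average (18), and 0 to 2 in each shoot comparison (1). Of the genes called in the shoots with BA, 959 of 1487 were higher in Col, 534 of 716 in ahp4 and 1601 of 3161 in the average, and with read totals 949 of 1270, 615 of 714 and 1718 of 2671. Depth limits ARR18 everywhere, ARR11 in shoots and ARR14 in roots.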
